A study of Mus musculus with 12 samples.

Results

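The 55 genes described here encode the machinery of mitosis and chromosome segregation. They were taken as a list of gene symbols by function, drawn up with earlier results of these data known, from 35896 mouse genes that had at least 1 matched transcript. Of the 55, 52 passed the filter on low counts and were tested among 12052 genes. Cdc25c, Kif2c and Espl1 did not pass. The samples were 12 whole uteri of wild-type female Swiss Webster mice, an outbred stock, aged 8 to 12 weeks, with 3 uteri at each of the 4 stages of the estrous cycle (proestrus, estrus, metestrus and diestrus). No animal carried a transgene or received a treatment per the labels. Poly(A) RNA was profiled by 3' TagSeq, which reads a tag near the 3' end of each transcript, from 100 ng of RNA per sample. Replicates are named by the number in their labels, which are 1, 2 and 3 in proestrus, 3, 4 and 5 in estrus and diestrus, and 5, 6 and 7 in metestrus, and values below follow that order.

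A dividing cell copies its DNA in S phase, and the genes of mitosis are transcribed mainly afterwards, in G2 and M phase. Cyclin A2 and the B cyclins activate CDK1, condensin compacts the chromosomes, kinetochores attach them to the spindle, and the spindle checkpoint holds back the anaphase-promoting complex until every chromosome is attached. Aurora B and its partners correct faulty attachments and later help to divide the cytoplasm. In non-dividing cells the DREAM complex represses many of these genes through promoter elements called CHR, while B-MYB and FOXM1 activate them in dividing cells. In the mouse uterus, estrogen is known to stimulate division of the epithelium, and its level in blood is highest around proestrus.

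The promoters of 4 members are shown because they hold both elements through which this gene class is known to be regulated, and because the 4 genes are among the 15 members with the smallest p across the stages. Each run is the 250 bases before the RefSeq transcription start (GRCm38.p6), written 5' to 3' on the gene's strand. Capitals mark the CHR core, TTTGAA, and the CCAAT box bound by NF-Y, on either strand, so that a match on the opposite strand reads TTCAAA or ATTGG.
Ccnb2, chr9:70421555-70421804, minus strand: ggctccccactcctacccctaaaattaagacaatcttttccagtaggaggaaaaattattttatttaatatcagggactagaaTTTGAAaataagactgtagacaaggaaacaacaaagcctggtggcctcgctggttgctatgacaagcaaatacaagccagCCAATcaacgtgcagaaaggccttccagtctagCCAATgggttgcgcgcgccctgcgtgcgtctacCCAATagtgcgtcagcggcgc
Top2a, chr11:99024190-99024439, minus strand: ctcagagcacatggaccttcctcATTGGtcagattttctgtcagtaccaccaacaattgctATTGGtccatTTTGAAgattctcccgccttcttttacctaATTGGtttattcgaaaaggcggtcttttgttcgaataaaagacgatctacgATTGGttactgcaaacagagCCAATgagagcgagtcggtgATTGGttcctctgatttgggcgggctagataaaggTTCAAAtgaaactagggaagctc
Cks1b, chr3:89418292-89418541, minus strand: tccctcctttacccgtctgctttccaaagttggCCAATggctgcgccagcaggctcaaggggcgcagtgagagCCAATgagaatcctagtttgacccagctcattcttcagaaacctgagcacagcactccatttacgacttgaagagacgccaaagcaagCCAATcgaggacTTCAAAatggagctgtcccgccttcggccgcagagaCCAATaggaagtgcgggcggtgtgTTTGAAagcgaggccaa
Smc2, chr4:52438971-52439220, plus strand: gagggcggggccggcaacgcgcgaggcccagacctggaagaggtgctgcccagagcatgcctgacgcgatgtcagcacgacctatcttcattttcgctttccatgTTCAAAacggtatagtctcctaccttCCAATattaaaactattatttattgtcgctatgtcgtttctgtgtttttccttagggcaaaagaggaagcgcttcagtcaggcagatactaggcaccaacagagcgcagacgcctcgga
Ccnb2, which encodes cyclin B2, had 3 CCAAT boxes on the coding strand, beginning 87, 54 and 21 bases before the start. The 46 members with a promoter in the RefSeq table had 48 windows. TTTGAA was found on either strand in 18 of these windows (37.5%) against 15.99% of all 32851 promoter windows of the same length. CCAAT was found in 35 (72.9%) against 33.9%, and both in 16 (33.3%) against 5.55%. In the 4 promoters shown no CHR match overlapped a CCAAT match. A match describes the letters and is not evidence of binding.

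Most of the 55 genes had their highest stage mean in proestrus (52 of 55, against 24.6% of all tested genes) and their lowest in estrus (51 of 55, against 32.7%). Their summed level was 1710, 1134 and 1917 CPM (counts scaled to a common library size) in the 3 proestrus uteri and 538, 454 and 454 in the 3 estrus uteri. It was 1029, 1071 and 1049 CPM in diestrus. The 3 metestrus uteri had 313, 1899 and 729.7 CPM. The diestrus uteri lay within a narrow range, whereas the 3 metestrus uteri ran from below every estrus uterus to the proestrus level. A sum is dominated by the most abundant members, so each gene was also set against its own mean over the 12 samples. The median over the 55 genes was then 177%, 108% and 193% in proestrus, 47.0%, 42.0% and 36.6% in estrus, 18.5%, 189% and 63.9% in metestrus, and 104%, 104% and 108% in diestrus.

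**Figure D1:**
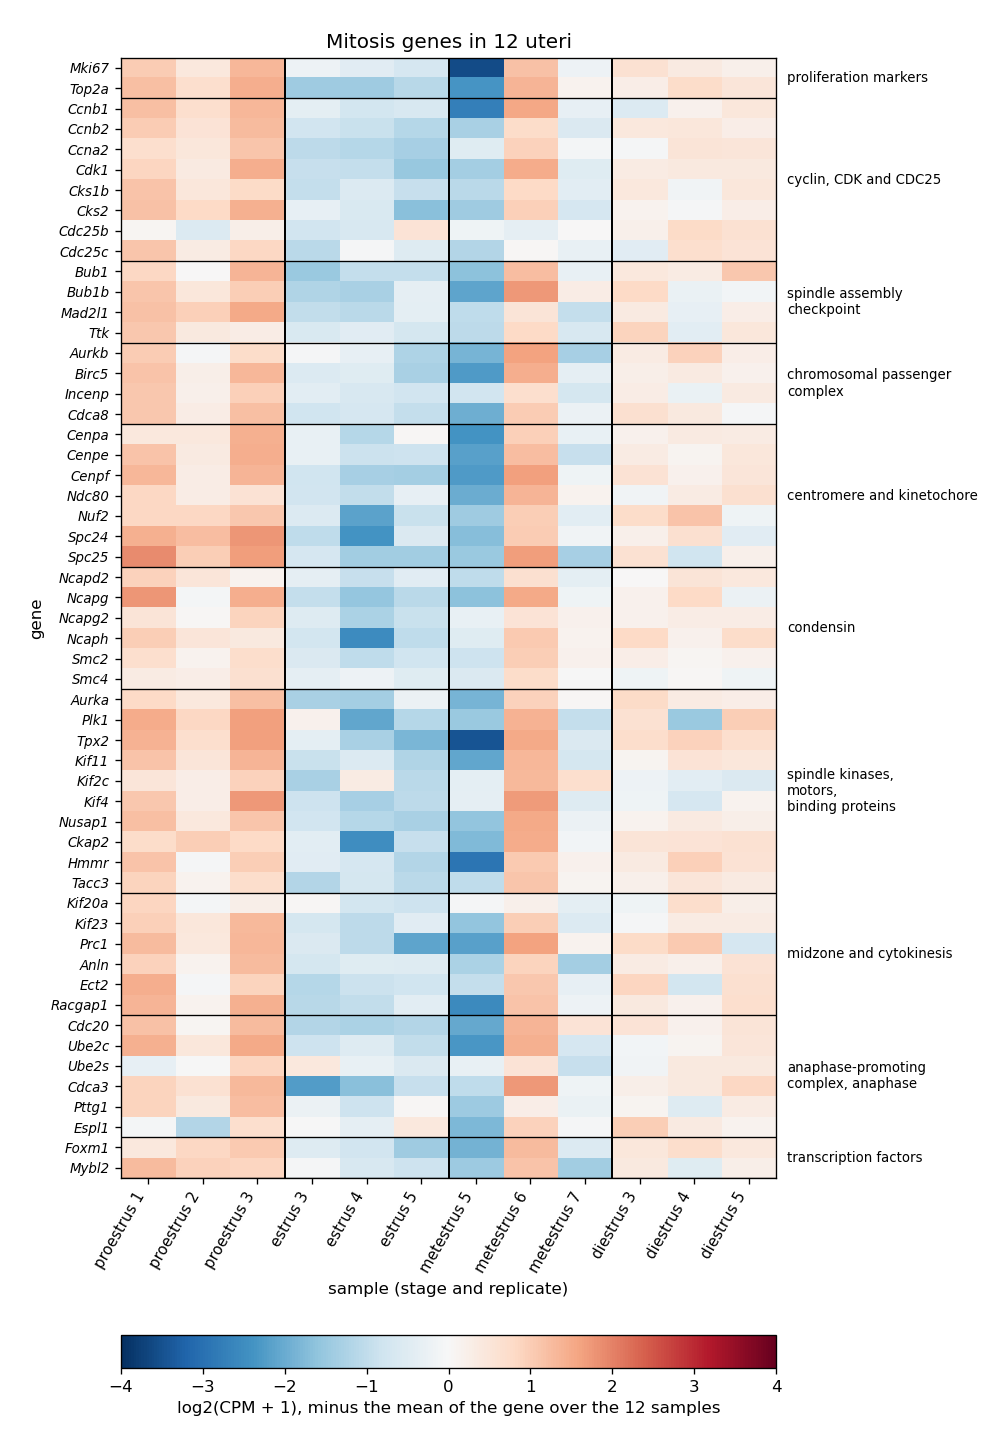
Level of the 55 genes (rows, grouped by role) in the 12 uteri (columns), as log2(CPM + 1) minus the mean of the gene over the 12 samples; red is above that mean and blue below. The 3 estrus columns and metestrus replicate 5 are blue, and proestrus replicates 1 and 3 and metestrus replicate 6 are red, over most rows.

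The estrus uteri were compared with the proestrus uteri first. In this step of the cycle 30 of the 55 genes were called lower in estrus and 0 higher, where called means an adjusted p under 0.05 in edgeR's quasi-likelihood test with Benjamini-Hochberg adjustment over all 12052 genes. Among all tested genes 7.46% were called lower and 9.67% higher. The median log2 change of the 52 tested members was -2.03 (-1.98 over all 55 when no filter was applied), against 0.02 over all tested genes. All 52 point estimates were below 0, from -3.02 for Kif4 to -0.08 for Cdc25b. In 49 of the 55 genes every estrus uterus was below every proestrus uterus, a pattern seen in 18.1% of tested genes. The 6 exceptions were Cdc25b, Aurkb, Kif2c, Kif20a, Ube2s and Espl1. RNA of whole uteri cannot tell fewer dividing cells from less RNA per cell.

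The count of 30 moved with single libraries. It was 15, 9 and 7 without estrus replicate 3, 4 or 5, and 9 and 7 without proestrus replicate 1 or 3. Over all tested genes these fits called 446 to 545 of 12335 to 12428 lower, against 899 of 12052 in the full fit. The count rose to 45 and 44 without metestrus replicate 5 or 6 (background 8.45% and 8.94% lower) and to 35 without metestrus replicate 7 (background 9.0%). It was 48 of 51 tested without the 3 metestrus uteri (background 11.1% lower). No member was called higher in estrus in any of these fits.

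**Figure D2:**
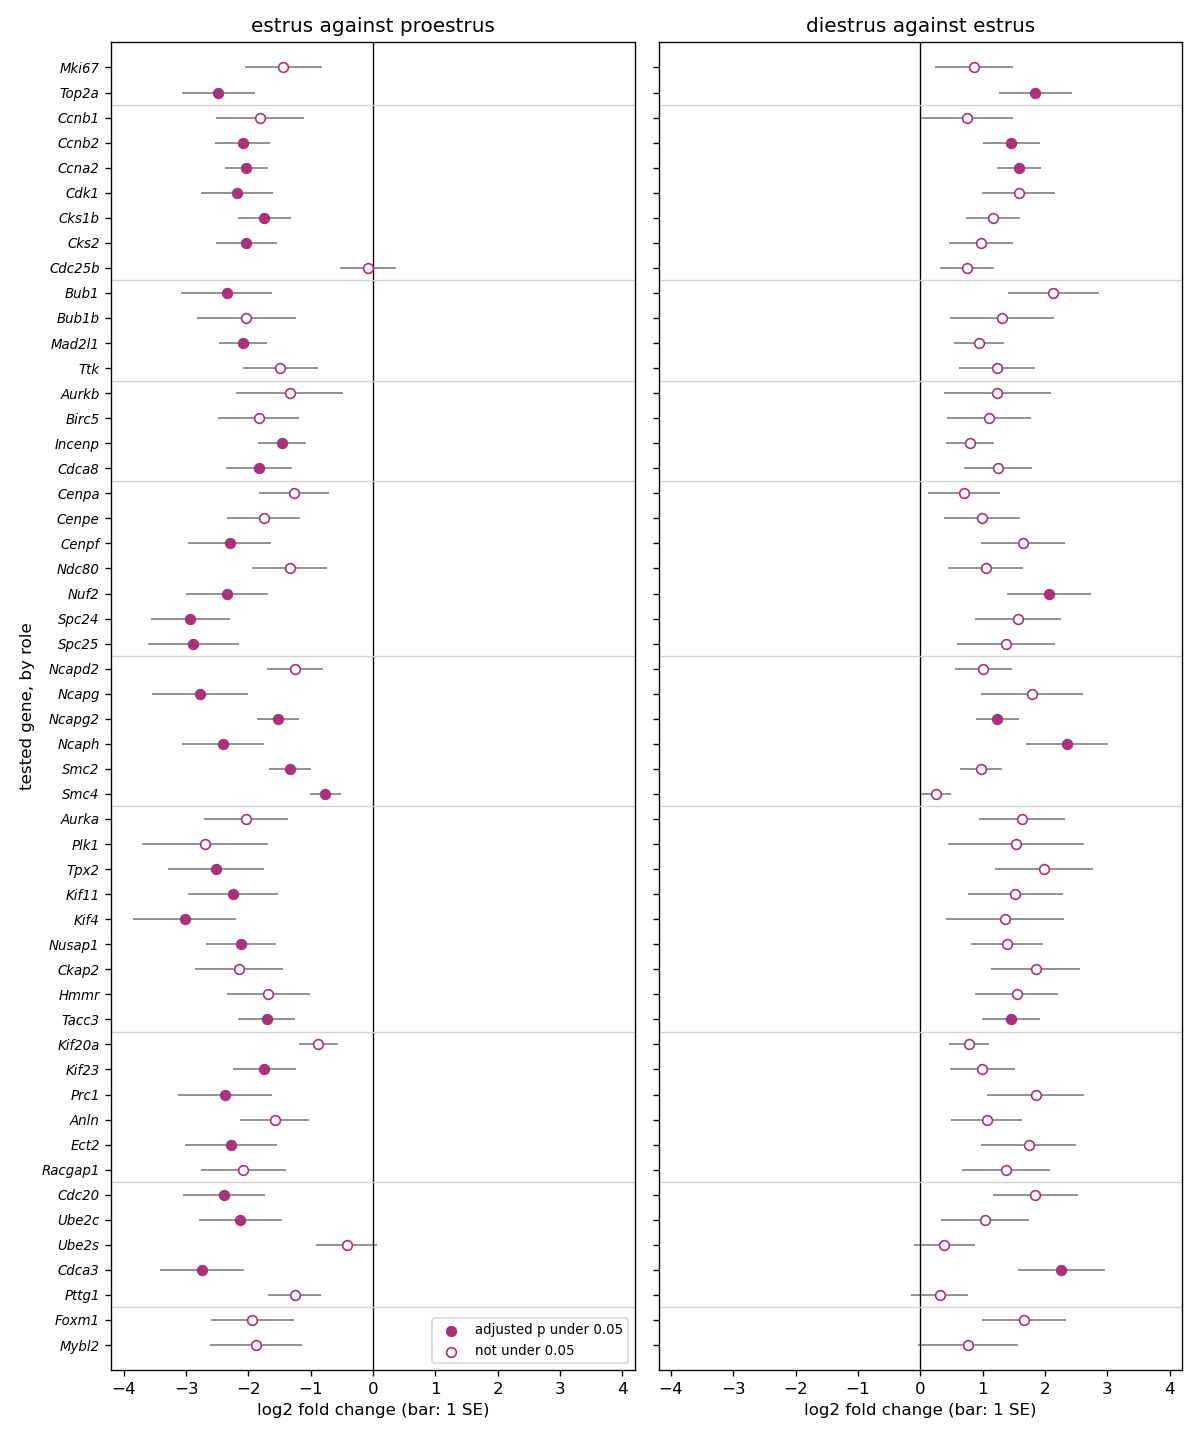
Log2 fold change of each of the 52 tested genes, estrus against proestrus (left) and diestrus against estrus (right), with bars of 1 SE; filled points have an adjusted p under 0.05. All 52 points lie below 0 on the left, 30 of them filled, and all 52 above 0 on the right, 8 of them filled.

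Of the 2 general markers of proliferation, Top2a fell in estrus and Mki67 did not pass the test. Top2a (ENSMUSG00000020914, chromosome 11, 98992943 to 99024189, GRCm38) encodes topoisomerase II alpha, which untangles sister chromatids. It read 152, 106 and 183 CPM in proestrus, 24.1, 24.02 and 29.8 in estrus, 11.9, 171 and 72.7 in metestrus and 78.8, 111 and 92.2 in diestrus. The estrus values lay in a narrow band below every proestrus and diestrus value, while metestrus spread from below estrus to the level of proestrus. The log2 change from proestrus to estrus was -2.49 ± 0.59 (SE, adjusted p = 0.0116), from a mean of 147 ± 38.8 to 25.97 ± 3.29 CPM (SD, n = 3 uteri each). Mki67, which encodes the Ki-67 antigen used to stain dividing cells, read 99.8, 65.8 and 122 CPM in proestrus, 41.5, 34.9 and 30.2 in estrus, 3.11, 109 and 42.3 in metestrus and 74.3, 62.3 and 56.03 in diestrus. Every estrus uterus was again below every proestrus and diestrus uterus, yet metestrus replicate 5 was lower still and metestrus replicate 6 lay within the proestrus range. Its log2 change in estrus was -1.44 ± 0.62 (adjusted p = 0.127). That adjusted p was 0.00516 without metestrus replicate 5 and 0.041 without metestrus replicate 6.

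Among cyclins, CDK1 and their partners, 5 of 8 genes were called lower in estrus: Ccna2, Ccnb2, Cdk1, Cks1b and Cks2. Ccna2 (ENSMUSG00000027715, chromosome 3, 36564865 to 36572150) encodes cyclin A2, which acts in S phase and G2. It read 42.8, 36.7 and 58.9 CPM in proestrus, 12.4, 11.4 and 10.1 in estrus, 18.7, 51.1 and 25.04 in metestrus and 25.4, 38.1 and 37.9 in diestrus. Unlike most members, its 3 estrus uteri lay below all 9 others, metestrus replicate 5 included. The log2 change in estrus was -2.03 ± 0.35 (adjusted p = 0.0021), a call that no single library removed. Ccnb2 (ENSMUSG00000032218, chromosome 9, 70407692 to 70421547) read 21.7, 15.6 and 25.9 CPM in proestrus, 5.57, 5.15 and 4.12 in estrus, 3.63, 17.7 and 6.56 in metestrus and 13.96, 14.3 and 12.4 in diestrus. All 3 estrus uteri were below all proestrus and diestrus uteri, with a log2 change of -2.09 ± 0.44 (adjusted p = 0.00671).

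Ccnb1, the other B cyclin, read 22.2, 15.1 and 24.4 CPM in proestrus, 6.805, 5.15 and 5.496 in estrus, 0.519, 28.4 and 7.15 in metestrus and 5.98, 10.4 and 13.02 in diestrus. Its estrus values did not overlap proestrus but did overlap diestrus, and the log2 change in estrus, -1.82 ± 0.70, missed the threshold (adjusted p = 0.0931, and 0.013 and 0.0172 without metestrus replicate 5 or 6). Of its whole transcript sequence, 27.7% of 31-base words also occur in other genes, among them Ccnb1-ps. Whether the tags read near the 3' end hold those words was not tested, which leaves its value uncertain. Cdk1, the kinase these cyclins activate, read 42.2, 29.6 and 64.5 CPM in proestrus, 11.8, 11.4 and 7.33 in estrus, 8.299, 66.3 and 16.1 in metestrus and 29.4, 30.1 and 30.6 in diestrus. The diestrus uteri were almost equal, and every one of them was above every estrus uterus. Cdk1 was lower in estrus by a log2 change of -2.18 ± 0.58 (adjusted p = 0.0211). The call was lost without proestrus replicate 3 or any 1 of the estrus uteri (adjusted p = 0.0535 to 0.0887).

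Cks1b and Cks2 encode small subunits that bind CDKs. Cks1b read 30.2, 18.3 and 22.8 CPM in proestrus, 6.19, 8.58 and 6.41 in estrus, 5.71, 23.4 and 9.54 in metestrus and 17.9, 11.9 and 18.1 in diestrus. All 3 estrus values were below the other groups except metestrus replicate 5, and the log2 change in estrus was -1.74 ± 0.42 (adjusted p = 0.0135). Cks2 read 45.1, 35.04 and 53.8 CPM in proestrus, 15.5, 12.6 and 5.496 in estrus, 6.74, 39.1 and 11.9 in metestrus and 21.9, 18.8 and 23.8 in diestrus, with estrus below proestrus and diestrus throughout and a log2 change of -2.03 ± 0.49 (adjusted p = 0.013). Estrus replicate 5 decided both calls, with proestrus replicate 1 for Cks1b (adjusted p = 0.0538 and 0.0557 without each) and proestrus replicate 3 for Cks2 (0.052 to 0.0613). Over whole transcripts, shared 31-base words made up 17.3% of Cks1b and 31.7% of Cks2, which leaves both uncertain. Cdc25b, a phosphatase that activates CDKs, stood apart: it read 6.28, 3.77 and 7.11 CPM in proestrus and 3.09, 3.43 and 9.16 in estrus, which overlapped, and its highest stage mean was in diestrus.

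**Figure D3:**
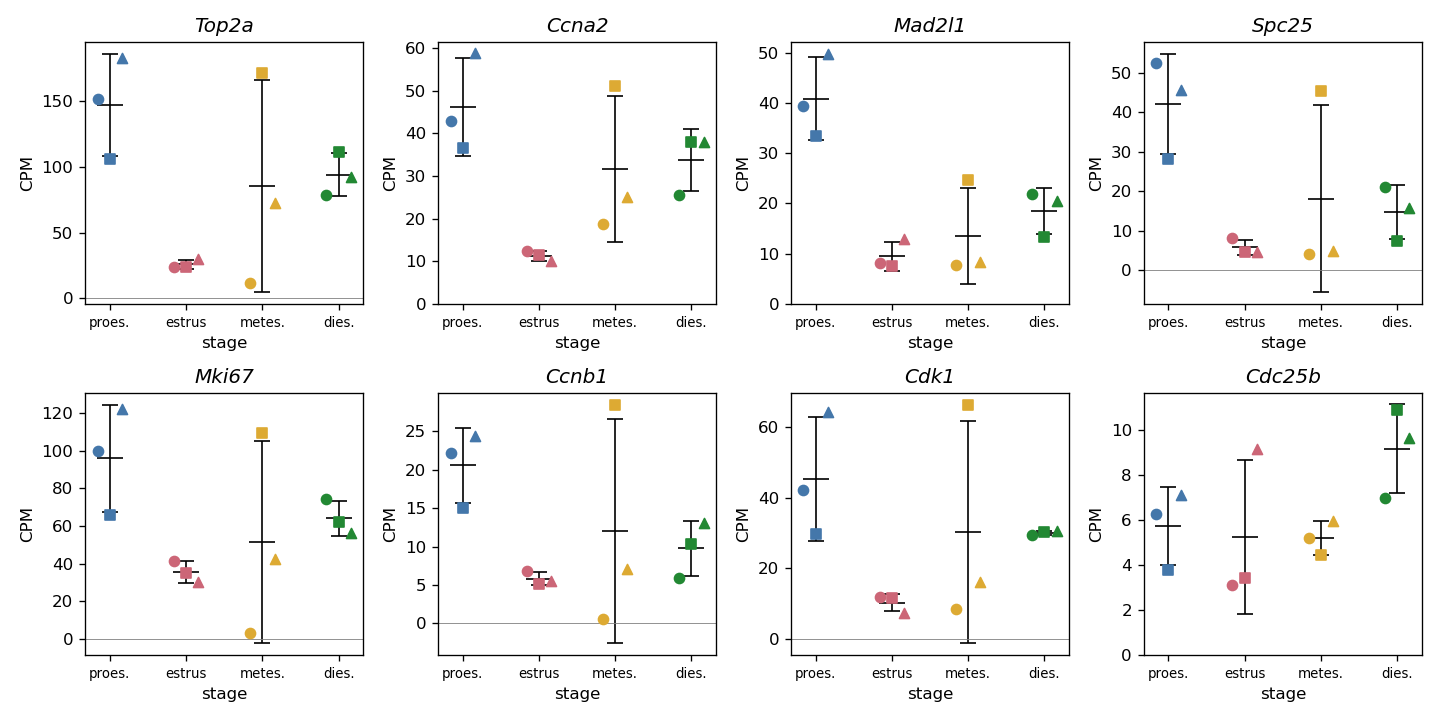
CPM of 8 genes in each uterus by stage (points; the marker shape orders replicates by number within a stage), with the mean and SD of 3 uteri (black). Top2a, Ccna2, Mad2l1, Mki67 and Cdk1 have estrus below proestrus and diestrus without overlap, Ccnb1 and Spc25 overlap between estrus and diestrus, and Cdc25b overlaps between estrus and each other stage; the metestrus bars are the widest of the 4 stages in all panels except that of Cdc25b.

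Of 4 spindle checkpoint genes, Mad2l1 and Bub1 were called lower in estrus. Mad2l1 (ENSMUSG00000029910, chromosome 6, 66535390 to 66547220) encodes MAD2, which binds CDC20 at unattached kinetochores, and had the smallest p of the 55 genes across the 4 stages (adjusted p = 0.00482). It read 39.4, 33.4 and 49.7 CPM in proestrus, 8.04, 7.44 and 12.8 in estrus, 7.78, 24.6 and 8.35 in metestrus and 21.9, 13.3 and 20.4 in diestrus. The 3 proestrus uteri were above all 9 others. The log2 change in estrus was -2.08 ± 0.38 (adjusted p = 0.00332), and the call remained without each single library. It was also the only member called lower in metestrus than in proestrus, by a log2 change of -1.61 ± 0.37 (adjusted p = 0.0297, against 1.82% of all tested genes called lower). That call was lost without any 1 of the proestrus uteri and without metestrus replicate 5 or 7 (adjusted p = 0.0563 to 0.113). Bub1, a checkpoint kinase, had a log2 change of -2.35 ± 0.73 in estrus (adjusted p = 0.0402) from 10.3, 5.39 and 15.2 CPM in proestrus to 1.24, 2.29 and 2.29. Bub1b and Ttk, also checkpoint kinases or kinase-like, had log2 changes of -2.04 ± 0.79 and -1.49 ± 0.60 that did not pass (adjusted p = 0.095 and 0.108).

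Of the chromosomal passenger complex, Incenp and Cdca8 were called lower in estrus, and Aurkb and Birc5 were not. Differences between the subunits of the complex were not tested. Incenp, its scaffold, read 41.6, 22.1 and 38.6 CPM in proestrus, 14.2, 12.01 and 10.99 in estrus, 10.9, 31.6 and 11.3 in metestrus and 23.9, 15.8 and 24.9 in diestrus. Every estrus uterus was below every proestrus and diestrus uterus, although metestrus replicates 5 and 7 lay at or below estrus, and the log2 change was -1.46 ± 0.38 (adjusted p = 0.019). The call was lost without proestrus replicate 1 or 3 or estrus replicate 4 or 5 (adjusted p = 0.0594 to 0.0723). Cdca8, which encodes borealin, had a log2 change of -1.83 ± 0.53 (adjusted p = 0.0299). Birc5, which encodes survivin, read 31.9, 16.7 and 36.03 CPM in proestrus, 9.28, 9.72 and 5.04 in estrus, 2.08, 39.8 and 10.7 in metestrus and 16.4, 18.3 and 15.8 in diestrus. Its estrus values lay below proestrus and diestrus, but the log2 change of -1.84 ± 0.65 did not pass (adjusted p = 0.067, and 0.00881 to 0.0107 without metestrus replicate 6 or 5). Aurkb, the kinase of the complex, read 10.3, 4.31 and 8.12 CPM in proestrus, 4.33, 3.43 and 1.37 in estrus, 0.519, 15.8 and 1.19 in metestrus and 5.98, 9.39 and 5.66 in diestrus. Estrus replicate 3 was level with proestrus replicate 2, and the log2 change of -1.34 ± 0.85 did not pass in the reported fit (adjusted p = 0.316) or in any of 19 alternatives. It was scarce, at 1.19 CPM or less in 2 of 3 metestrus uteri.

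Among 7 centromere and kinetochore genes, Spc24, Spc25, Nuf2 and Cenpf were called lower in estrus. Spc24, Spc25, Nuf2 and Ndc80 encode the 4 subunits of the NDC80 complex, which holds spindle microtubules. Spc24 (ENSMUSG00000074476, chromosome 9, 21755442 to 21760303) read 21.1, 18.3 and 26.9 CPM in proestrus, 3.09, 0.572 and 4.58 in estrus, 1.56, 15.8 and 6.56 in metestrus and 8.47, 11.9 and 5.09 in diestrus. The 3 proestrus uteri were above all 9 others, and estrus replicate 4 had a single count. The log2 change in estrus was -2.93 ± 0.64 (adjusted p = 0.0076) and the call held without each single library. Spc25 read 52.5, 28.03 and 45.7 CPM in proestrus, 8.04, 4.58 and 4.58 in estrus, 4.15, 45.5 and 4.77 in metestrus and 20.9, 7.42 and 15.8 in diestrus. It overlapped between estrus and diestrus, and its log2 change of -2.88 ± 0.73 (adjusted p = 0.0167) was lost as a call without proestrus replicate 1 or 3 or estrus replicate 4 or 5 (adjusted p = 0.0503 to 0.0685). Nuf2 had a log2 change of -2.34 ± 0.66 (adjusted p = 0.028). Ndc80 itself, at -1.34 ± 0.60, did not pass (adjusted p = 0.143), and whether it differed from its partners was not tested. Cenpf, a large outer kinetochore protein, had a log2 change of -2.30 ± 0.66 (adjusted p = 0.0293). Cenpe, a kinetochore motor, and Cenpa, the centromeric histone H3, had log2 changes of -1.76 ± 0.59 and -1.28 ± 0.56 and did not pass (adjusted p = 0.056 and 0.137).

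Of 6 condensin genes, 5 were called lower in estrus, with a median log2 change of -1.43 over the 6. Ncapg2, a subunit of condensin II, read 15.97, 11.3 and 21.3 CPM in proestrus, 7.42, 4.004 and 5.496 in estrus, 8.82, 16.4 and 12.5 in metestrus and 12.5, 13.8 and 13.6 in diestrus. All 3 estrus uteri were below the 9 others. Its log2 change in estrus was -1.52 ± 0.34 (adjusted p = 0.00866). Ncaph, the kleisin of condensin I, read 10.3, 7.01 and 6.597 CPM in proestrus, 2.47, 0 and 1.83 in estrus, 3.11, 10.7 and 5.37 in metestrus and 8.97, 5.44 and 8.49 in diestrus. Its estrus uteri were also below the 9 others, at 0 counts in replicate 4, and the log2 change was -2.41 ± 0.66 (adjusted p = 0.0239). Smc2, an ATPase of both condensins, read 93.5, 64.2 and 95.4 CPM in proestrus, 38.97, 28.6 and 32.97 in estrus, 32.7, 117 and 66.2 in metestrus and 69.8, 62.3 and 65.7 in diestrus. Estrus was below proestrus and diestrus, and metestrus replicate 5 lay within the estrus range. Smc2 had a log2 change of -1.33 ± 0.34 (adjusted p = 0.0162). The calls of Ncaph and Smc2 were each lost without proestrus replicate 1 or 3 or estrus replicate 4 or 5 (adjusted p = 0.0503 to 0.0823 for Ncaph and 0.0551 to 0.0615 for Smc2). Smc4, the partner of Smc2, changed least among the called members, by -0.77 ± 0.25 (adjusted p = 0.049), and Ncapg most among condensin genes, by -2.77 ± 0.77 (adjusted p = 0.0258). Ncapd2 had a log2 change of -1.25 ± 0.45 and did not pass (adjusted p = 0.0728).

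Of 10 genes for spindle kinases, motors and microtubule-binding proteins, Tpx2, Kif11, Kif4, Nusap1 and Tacc3 were called lower in estrus. Kif4, a chromosome-bound kinesin, read 7.42, 3.77 and 12.2 CPM in proestrus, 1.24, 0.572 and 0.916 in estrus, 2.08, 11.99 and 1.79 in metestrus and 2.49, 1.48 and 3.396 in diestrus. The estrus values rest on 1 or 2 counts per library, so the log2 change of -3.02 ± 0.82 (adjusted p = 0.0231) is imprecise. That call was lost without proestrus replicate 1 or 3 or any 1 of the estrus uteri (adjusted p = 0.0537 to 0.101). Tacc3, which steadies spindle microtubules, read 26.2, 15.1 and 22.8 CPM in proestrus, 5.57, 8.01 and 5.95 in estrus, 6.22, 30.9 and 14.9 in metestrus and 15.9, 19.8 and 18.1 in diestrus. Its estrus uteri were below every proestrus and diestrus uterus, with a log2 change of -1.71 ± 0.46 (adjusted p = 0.0215) that was not called without proestrus replicate 1 or 3 or estrus replicate 3 or 5 (adjusted p = 0.0651 to 0.0747). Tpx2, an activator of Aurora A, had a log2 change of -2.53 ± 0.77, Kif11, the motor that separates the poles, of -2.25 ± 0.73, and Nusap1 of -2.12 ± 0.56 (adjusted p = 0.0383, 0.0485 and 0.0213). Plk1 and Aurka, the mitotic kinases of this group, had log2 changes of -2.69 ± 1.01 and -2.04 ± 0.68 and did not pass (adjusted p = 0.0832 and 0.0545), nor did Ckap2 (-2.15) and Hmmr (-1.68). Kif2c was not tested.

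In the midzone and cytokinesis group, Kif23, Prc1 and Ect2 were called lower in estrus (3 of 6). Kif23 and Racgap1 encode the centralspindlin complex. Kif23 had a log2 change of -1.75 ± 0.50 (adjusted p = 0.0296) and Racgap1 one of -2.08 ± 0.68 that fell just short (adjusted p = 0.0511). Prc1, which bundles midzone microtubules, had -2.37 ± 0.76 and Ect2, the activator of RhoA at the cleavage site, had -2.28 ± 0.73 (adjusted p = 0.0459 and 0.0473). Anln did not pass at -1.58 ± 0.56, nor did Kif20a at -0.88 ± 0.31 (adjusted p = 0.0666 and 0.0707). Kif20a overlapped between the stages, at 27.5 to 53.05 CPM in proestrus and 16.03 to 29.7 in estrus. Its exons overlap those of Cdc23 on the other strand, and whether the authors' counting used strand is not given in the sources used here.

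Among 6 genes of the anaphase-promoting complex pathway and anaphase, Cdca3, Cdc20 and Ube2c were called lower in estrus. Cdca3 read 18.2, 15.1 and 24.9 CPM in proestrus, 1.24, 2.29 and 4.58 in estrus, 4.15, 34.1 and 8.35 in metestrus and 11.5, 12.8 and 17.6 in diestrus. Estrus lay below proestrus and diestrus, and metestrus replicate 6 was the highest of the 12 uteri. Cdca3 had a log2 change of -2.75 ± 0.68 (adjusted p = 0.015), which was not called without proestrus replicate 3 or estrus replicate 3 or 4 (adjusted p = 0.056 to 0.0573). Cdc20, the activator that the checkpoint restrains, read 22.8, 10.2 and 24.4 CPM in proestrus and 3.71, 3.43 and 3.66 in estrus, a log2 change of -2.39 ± 0.66 (adjusted p = 0.0252), although 25.5% of its 31-base words occur in other genes. Ube2c, the ubiquitin-conjugating enzyme that starts chains, had a log2 change of -2.13 ± 0.67 (adjusted p = 0.0421). Ube2s, which extends those chains, had one of -0.42 ± 0.49 with overlapping groups (adjusted p = 0.6). Pttg1, the securin that blocks separase, did not pass at -1.26 ± 0.43 (adjusted p = 0.0598). Espl1, separase itself, was not tested, at 0 to 5.98 CPM over the 12 uteri.

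Neither transcription factor of the list was called. Foxm1, an activator of mitotic genes, read 9.13, 12.4 and 14.7 CPM in proestrus, 4.33, 3.43 and 1.83 in estrus, 1.04, 17.04 and 4.17 in metestrus and 9.47, 11.4 and 9.06 in diestrus. Estrus was below proestrus and diestrus in every uterus, with a log2 change of -1.94 ± 0.67 (adjusted p = 0.0606). The adjusted p was 0.00846 to 0.0498 without any 1 of the metestrus uteri. Mybl2, which encodes B-MYB, had a log2 change of -1.88 ± 0.74 (adjusted p = 0.0987), and 21.0% of its 31-base words are shared with other genes.

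Metestrus replicate 5 was the lowest of all 12 uteri for 35 of the 55 genes, against 7.56% of tested genes, and lay below all 3 estrus uteri for 36, against 32.6%. Metestrus replicate 6 was the highest of the 12 for 18 genes, against 6.55%, and lay above all 3 proestrus uteri for 19, near the background of 30.4%. Metestrus replicate 7 was above all 3 estrus uteri for 32 genes, against 32.9% of tested genes, and below all 3 proestrus uteri for 48, against 34.5%. In metestrus replicate 5, 22 members had 3 counts or fewer. Mki67 had a mean of 51.5 ± 53.6 CPM (SD, n = 3) over metestrus, against 35.5 ± 5.64 in estrus. Library totals were 1630371 to 1848225 estimated counts of tested genes in metestrus and 1630371 to 2167758 over all 12.

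**Figure D4:**
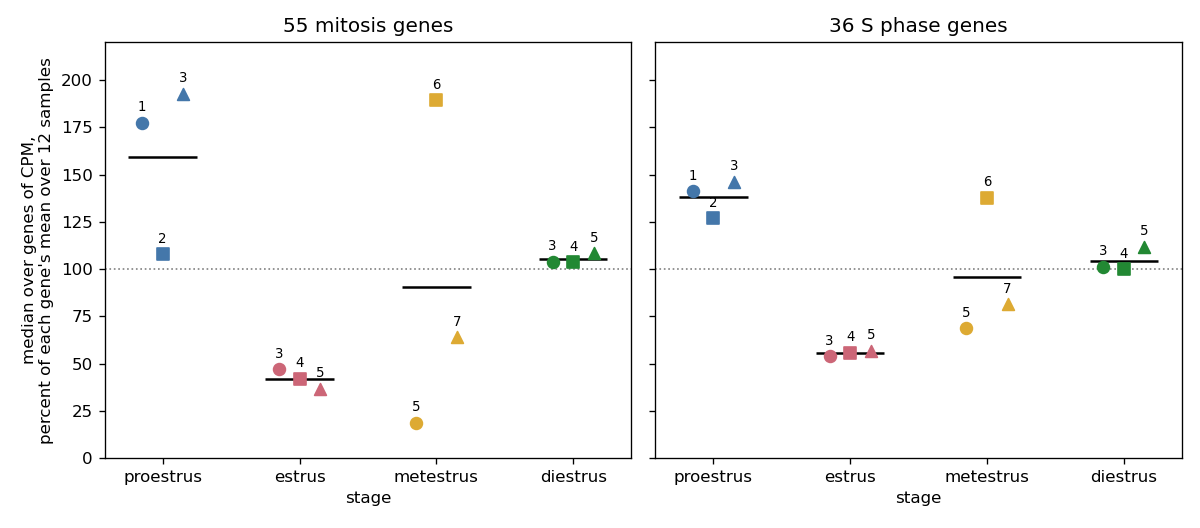
Median over genes of the CPM as a percent of each gene's own mean over the 12 uteri, for the 55 mitosis genes (left) and the 36 S phase genes (right); each point is 1 uterus, numbered by replicate, and bars are stage means. For mitosis genes metestrus runs from 18.5% to 189%, beyond estrus below, whereas for S phase genes metestrus replicate 5, at 68.6%, is above the 3 estrus uteri.

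Tests that use the metestrus uteri followed this spread. Against estrus, Ccna2 alone was called higher in metestrus, by a log2 change of 1.47 ± 0.36 (adjusted p = 0.0251), while 2.83% of all tested genes were called higher. The call was lost without metestrus replicate 6 or any 1 of the estrus uteri (adjusted p = 0.061 to 0.0977), and 23 members were called higher without metestrus replicate 5 (background 4.71%). Without metestrus replicate 7 the count was 2 (background 3.29%). Against proestrus, the single lower call for Mad2l1 became 31 lower calls without metestrus replicate 6 (background 3.78%). From metestrus to diestrus 0 of 55 were called by edgeR, with 0 at an unadjusted p under 0.05, and 0 by DESeq2 or limma-voom, where 0.224% of all tested genes were called. Without metestrus replicate 6 the gene Cenpe was called higher in diestrus. Over all 4 stages 12 of the 55 were called, near the background of 23.2%: Top2a, Ccnb2, Ccna2, Cks1b, Cks2, Mad2l1, Incenp, Spc24, Spc25, Ncapg2, Smc2 and Cdca3. This count was 46 of 51 tested without the 3 metestrus uteri (background 35.7%), and 40 and 44 without metestrus replicate 5 or 6 (27.7% and 26.7%). It was 2 to 7 without proestrus replicate 1 (4) or 3 (2), estrus replicate 3 (6), 4 (4) or 5 (3), or diestrus replicate 3 (5), 4 (7) or 5 (6). Over all tested genes these fits called 1910 to 2252 of 12335 to 12428, against 2793 of 12052 in the full fit.

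Between estrus and diestrus 8 of the 55 genes were called higher in diestrus and 0 lower, while 9.72% of all tested genes were called higher and 13.0% lower. These were Top2a, Ccnb2, Ccna2, Nuf2, Ncapg2, Ncaph, Tacc3 and Cdca3. Ccna2 had a log2 change of 1.58 ± 0.35 (adjusted p = 0.00587), Ncapg2 of 1.24 ± 0.34 (0.0197), Ncaph of 2.35 ± 0.66 (0.0201) and Cdca3 of 2.26 ± 0.70 (0.0325). The changes of the other 4 were 1.46 ± 0.46 for Ccnb2, 1.46 ± 0.46 for Tacc3, 1.85 ± 0.59 for Top2a and 2.07 ± 0.67 for Nuf2 (adjusted p = 0.0346, 0.0357, 0.0362 and 0.0403). All 52 estimates were above 0, with a median of 1.34 (1.29 over all 55 without the filter), and every estrus uterus was below every diestrus uterus for 43 of 55 genes, against 20.6% of tested genes. The call for Ccna2 remained without each single library. The count was 4, 1 and 3 without estrus replicate 3, 4 or 5, 2, 3 and 3 without diestrus replicate 3, 4 or 5, and 23 and 27 without metestrus replicate 5 or 6 (background 11.1% and 11.3%). Over all tested genes, the fits without 1 estrus or diestrus uterus called 794 to 912 of 12335 to 12410 higher, against 1172 of 12052 in the full fit. Without all 3 metestrus uteri 38 of 51 tested members were called higher (background 13.9%).

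Between proestrus and diestrus no member was called by edgeR, where 8.53% of all tested genes were called in either direction. By unadjusted p 6 members were under 0.05, and DESeq2 and limma-voom called 1 each. In 51 of the 52 tested genes the estimate was higher in proestrus (median 0.58), and every diestrus uterus was below every proestrus uterus for 16 of 55, against 15.8% of tested genes. The gene nearest to a call was Mad2l1 (1.14 ± 0.35, adjusted p = 0.0633). Proestrus replicate 2 lay at 108% in the median over members, the same as the highest diestrus uterus. Without the 3 metestrus uteri 9 members were called higher in proestrus (background 6.92%): Mad2l1, Cks2, Spc24, Spc25, Top2a, Ube2c, Nusap1, Smc4 and Ccnb1. The count was 1, 3 and 1 without metestrus replicate 5, 6 or 7 (background 5.4%, 4.96% and 5.32% higher).

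The neighbouring gene lists were chosen, like the members, with earlier results of these data known. Among 67 other genes that peak in G2 and mitosis (51 tested, median log2 change -1.72), 0 were called higher in estrus than in proestrus. In the same comparison 20 were called lower, against 7.46% of all tested genes. They included Hjurp, the chaperone of the centromeric histone (-1.20 ± 0.25, adjusted p = 0.00639), Mastl, the Greatwall kinase (-1.60 ± 0.38, 0.0131), Lmnb1, which encodes lamin B1 (-1.98 ± 0.43, 0.00764), and the kinesin Kif20b (-1.83 ± 0.40, 0.00751). Of 31 genes for cohesin and the core subunits of the anaphase-promoting complex, 2 were called lower, Cdc27 and Bub3, near the background of 7.46%, with a median of -0.18 over the 30 tested. The 2 genes of that list with the smallest p across stages, Nipbl and Pds5b, moved in opposite directions between estrus and diestrus: Nipbl, the cohesin loader, was lower in diestrus (-0.56 ± 0.13, adjusted p = 0.00743) with Stag2, and Pds5b higher (0.56 ± 0.14, 0.0117) with Cdc27. Fzr1 and Bub3 followed in that order, with log2 changes in estrus of -0.49 ± 0.17 and -0.70 ± 0.22 (adjusted p = 0.0563 and 0.0396).

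Of 36 S phase genes 22 were called lower in estrus than in proestrus and 0 higher (median of the 34 tested -1.28). Over all tested genes these shares were 7.46% and 9.67%. In diestrus against estrus 13 S phase genes were called higher, against 9.72% of all tested genes. Mcm3, a subunit of the replicative helicase, read 33.1, 32.9 and 36.03 CPM in proestrus, 5.57, 5.72 and 6.41 in estrus, 22.8, 29.7 and 19.7 in metestrus and 25.4, 18.3 and 19.8 in diestrus. Its estrus uteri were far below all 9 others, and metestrus replicate 5 was within the diestrus range. Mcm3 had a log2 change in estrus of -2.51 ± 0.23 (adjusted p = 6.74e-05), Dut, the dUTPase, of -2.41 ± 0.31 (0.000452) and Pcna, the polymerase clamp, of -1.28 ± 0.18 (0.000701). In metestrus replicate 5 the median S phase gene stood at 68.6% of its own mean, against 53.8% to 56.9% in estrus, whereas the median mitotic gene stood at 18.5%, against 36.6% to 47.0%. That uterus was above all 3 estrus uteri for 19 of 36 S phase genes and below them for 5, against 4 and 36 of the 55 members (30.1% of all tested genes were above and 32.6% below). This is 1 uterus, and the difference was not tested. The exception in the list was Cdc45, a helicase cofactor, which read 41.1, 32.3 and 82.7 CPM in proestrus, 108, 91.5 and 74.2 in estrus, 33.2, 26.5 and 24.4 in metestrus and 23.4, 30.1 and 18.7 in diestrus and was lower in diestrus than in estrus by a log2 change of -1.91 ± 0.30 (adjusted p = 0.000764). It was also lower in metestrus than in estrus (-1.69 ± 0.30, adjusted p = 0.00548).

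**Figure D5:**
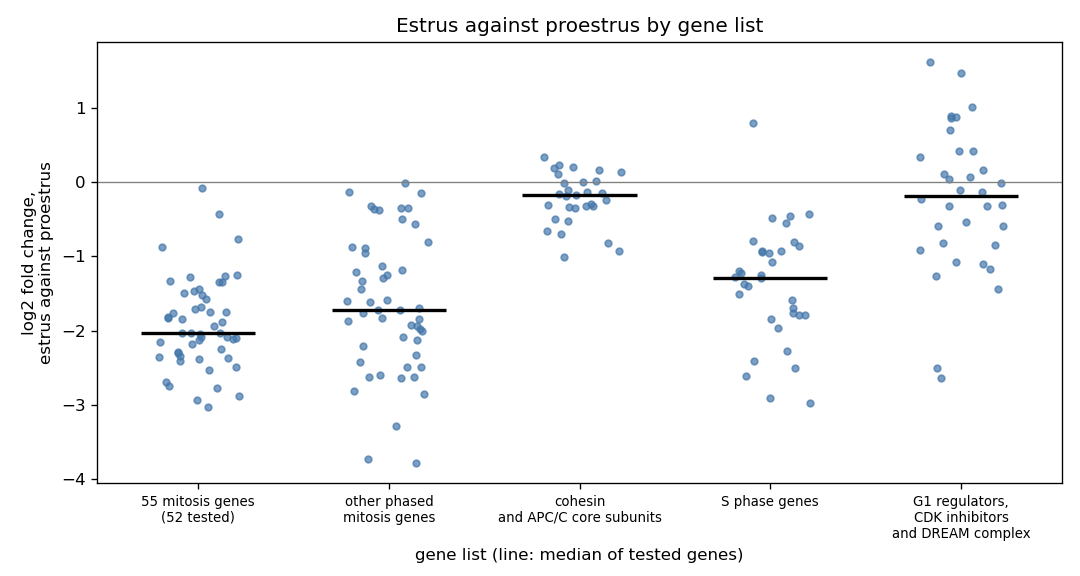
Log2 fold change, estrus against proestrus, of each tested gene (points) in the 55 mitosis genes and 4 neighbouring lists, with the median of each list (line). The medians are -2.03, -1.72, -0.18, -1.28 and -0.18 from left to right.

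Regulators of G1, CDK inhibitors and DREAM subunits were split, with 6 of 35 called lower and 6 higher in estrus than in proestrus, against 7.46% and 9.67% of all tested genes. The 6 higher genes were the CDK inhibitors Cdkn1a, Cdkn1b and Cdkn1c, the antiproliferative genes Btg1 and Btg2, and Ccng2. Cdkn1a, which encodes p21, read 32.5, 30.7 and 29.4 CPM in proestrus, 46.4, 57.8 and 67.3 in estrus, 28.5, 18.9 and 20.3 in metestrus and 16.9, 12.4 and 13.6 in diestrus. Its estrus uteri were above all 9 others, with a log2 change of 0.89 ± 0.19 (adjusted p = 0.00751). Btg1 and Btg2 had log2 changes of 0.88 ± 0.17 and 0.70 ± 0.21 (adjusted p = 0.00463 and 0.0357). The others had log2 changes of 0.87 ± 0.16 for Cdkn1b, 1.47 ± 0.40 for Cdkn1c and 1.61 ± 0.34 for Ccng2 (adjusted p = 0.00332, 0.0235 and 0.00673). The 6 lower genes were the D cyclins Ccnd1 and Ccnd2, and E2f2, E2f4, E2f8 and Tfdp1. Ccnd1, which starts the passage through G1, read 143, 132 and 138 CPM in proestrus, 59.4, 36.6 and 56.3 in estrus, 81.4, 116 and 67.4 in metestrus and 137, 108 and 99.05 in diestrus. All 3 estrus uteri were below the 9 others, with a log2 change of -1.43 ± 0.22 (adjusted p = 0.00113). Ccnd2 had a log2 change of -1.26 ± 0.27 (adjusted p = 0.00701). In diestrus against estrus, Cdkn1a, Cdkn1b, Btg1, Btg2 and Ccng2 were called lower and Ccnd1 and Ccnd2 higher.

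Other features of the uteri moved with the stages. Of 9 uterine identity genes, 8, Esr1, Pgr and Hoxa10 among them, were detected in every library, and Foxa2 was at 0 in proestrus replicate 2; 4 of the 9 were called lower in estrus than in proestrus. Epithelial markers (9 genes) summed to 1500 to 1948 CPM in proestrus, 1574 to 1850 in estrus, 510.3 to 1117 in metestrus and 492 to 701 in diestrus and so overlapped between proestrus and estrus. Of these markers only Cldn4 was called higher in estrus than in proestrus (log2 change 3.15 ± 0.43, adjusted p = 0.000587), and 0 were called lower. Macrophage markers (8 genes, all called higher in estrus than in proestrus) summed to 667 to 728 CPM in estrus and 252 to 322 in proestrus. Smooth muscle markers (8 genes) summed to 9229 to 11736 CPM in estrus and 6984 to 9838 in proestrus, which overlapped, and 3 of them (Myh11, Tagln and Smtn) were called higher in estrus. Stromal markers (8 genes) summed to 7742 to 8228 CPM in estrus and 9372 to 9497 in proestrus, with 2 called lower (Col1a1 and Hoxa11) and 1 higher (Pdgfra). Their sum was lowest in metestrus replicate 5, at 5147 CPM against 6887 to 11010 in the other 11 uteri. Of single stromal markers, Vim, Col1a1 and Col3a1 were lowest there. Pdgfra, Dcn, Lum, Hand2 and Hoxa11 were each lowest in another uterus. Red cell markers (8 genes) were highest in metestrus replicate 6 (1449 CPM) and proestrus replicate 3 (1101 CPM), 2 of the 3 libraries with the highest mitotic level. The remaining library of those 3, proestrus replicate 1, had 234 CPM. Metestrus replicate 7 had 845 CPM at a mitotic sum of 729.7 CPM. Globin genes made up most of the red cell sum. Alas2, an enzyme of heme synthesis in red cell precursors, was also highest in metestrus replicate 6 and proestrus replicate 3. It read 6.31 and 4.06 CPM there, against 0 to 2.695 in the others. As 3 counts equal 1.89 CPM in metestrus replicate 6 and 1.52 CPM in proestrus replicate 3, Alas2 rests on few counts. Tfrc, the transferrin receptor, which dividing cells of many types express, read 9.54 to 50.1 CPM, and Klf1 and Slc4a1 were at 0 to 1.14 CPM in all 12. Of 9 ovarian genes, Zp3 and Fshr were at 0 in all 12, and the list summed to 41.6 to 77.6 CPM in proestrus and 19.8 to 31.5 in estrus. Foxl2 made up most of that sum and was called lower in estrus (log2 change -1.53 ± 0.29, adjusted p = 0.00383). Oviduct genes (5 genes, 1 tested and called higher in estrus) summed to 40.8 to 50.1 CPM in estrus and 10.3 to 23.3 in proestrus. The part of these cell types in the results was not tested.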

How the data were processed

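The authors deposited 1 table per uterus with estimated counts and TPM for 119414 transcripts. The submitters' processing notes name FastQC, kallisto and DESeq2, and the transcript set, build and strand setting are not given in the sources used here. The TPM values were deposited by the authors and used in 1 alternative, in which counts were scaled from TPM. TPM divides by transcript length, and whether that suits tags read near the 3' end was not tested. In that alternative 38 members were tested. Here transcript IDs, without version, were matched to GENCODE M21 (GRCm38; 97.7% matched), and estimated counts were summed per gene and rounded to whole numbers. Genes passing filterByExpr were fitted in edgeR 4.0.16 (R 4.3.3) with TMM scaling, over all 12 samples without covariates, and tested with the quasi-likelihood F test across stages and for the 6 pairs of stages. Adjusted p-values are Benjamini-Hochberg over all 12052 tested genes with a threshold of 0.05, SE is the log2 change divided by the square root of F, and CPM is TMM-scaled.

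Library sizes over tested genes were 1630371 to 2167758 estimated counts, so that 3 counts equal 1.37 to 1.89 CPM. This limit covers counting error only, while the SD and SE also hold the variation between uteri. All replicate pairs differed by more than sampling noise (chi-square per degree of freedom 3.24 to 15.6). The labels do not tell how stages were assigned. Values in every sample are given for 7 well-known members, for the 15 with the smallest p across stages, and for any call against the majority. Of each neighbouring list the 4 genes with the smallest p and any called against its majority were named. Promoters came from a RefSeq table (GRCm38.p6), which held 46 of the 55 members. In all, 34 members share over 1% of 31-base words with other genes, 14 overlap exons on the other strand (Ccna2, Cdca8, Ncapg, Kif4, Nusap1, Tacc3, Prc1, Cdc20, Ube2c and Kif20a among them) and 3 on the same strand (Top2a, Ncapd2 and Foxm1), and are uncertain to that extent. The 31-base words were counted over whole transcripts, so the share within the 3' tags that were read is not known for any member. Members and lists were chosen with earlier results of these data known. One red cell marker is not reported here. The fit was tested on simulated counts. Alternatives were DESeq2 1.42.0, limma-voom (limma 3.58.1), other scalings, no filter, TPM-scaled counts, fits to 2 stages, a replicate block and leaving out each library. A fit without the metestrus uteri was added after seeing the data.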

Additional observations from a re-analysis of the deposited data

How the results depend on the processing

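Signs were checked for the 21 members with values in every sample, in estrus against proestrus and in any other pair where the member was called. None of these log2 changes changed sign in any alternative, and the other members were not checked. In estrus against proestrus the 30 lower calls became 46 with no filter on low counts (55 tested), 14 with counts scaled from TPM (38 tested), 46 in a fit to those 2 stages and 48 without the 3 metestrus uteri, with a range of 7 to 45 when 1 library was left out. DESeq2 gave 34 and limma-voom 23. Across 4 stages the 12 calls became 21 with DESeq2, 8 with limma-voom, 40 with no filter, 6 with counts scaled from TPM and 46 without metestrus, and 2 to 44 without 1 library. In diestrus against estrus the 8 calls became 14 with DESeq2, 4 with limma-voom, 25 with no filter, 2 with counts scaled from TPM, 35 in a fit to 2 stages and 38 without metestrus, and 1 to 27 without 1 library. In metestrus against estrus the single call became 6 with DESeq2, 11 with no filter, 0 with limma-voom, with counts scaled from TPM or in a fit to 2 stages, and 0 to 23 without 1 library. In metestrus against proestrus it became 4 with no filter, 0 with counts scaled from TPM or in a fit to 2 stages, and 0 to 31 without 1 library. Between proestrus and diestrus the 0 calls became 1 with DESeq2 or limma-voom, 2 with no filter, 8 in a fit to 2 stages and 9 without metestrus, and 0 to 3 without 1 library. In diestrus against metestrus they ranged from 0 to 1. Over all tested genes, DESeq2 called 365 of 12041 higher in metestrus than in estrus, and the fit with no filter 2.43%. The fit with no filter called 1.79% lower in metestrus than in proestrus. Higher in proestrus than in diestrus were 584 of 12041 with DESeq2, 520 of 12052 with limma-voom and 3.36% with no filter. With no filter, 4.82% of all tested genes were called lower in estrus than in proestrus. The shares were then 16.2% across 4 stages and 6.49% higher in diestrus than in estrus. In fits to 2 stages 11.5% were called lower in estrus than in proestrus and 13.1% higher in diestrus than in estrus. Such a fit called 6.8% higher in proestrus than in diestrus. Of all tested genes, DESeq2 called 2850 of 12041 across 4 stages, 841 lower in estrus than in proestrus and 1082 higher in diestrus than in estrus. With limma-voom these were 2604, 854 and 1121 of 12052. With counts scaled from TPM they were 1674, 546 and 747 of 9683, and the 6 of 38 members called across 4 stages were near that share. Leaving out a library lowers the sample number, and fits without metestrus do not hold its spread. Why the numbers of calls moved was not tested. Over the same 21 members, 763 of 993 alternative values kept their side of the threshold, 165 lost and 65 gained a call.

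Only estrus and diestrus share all 3 replicate numbers. Same-numbered uteri did not deviate together (correlations -0.0433, 0.0131 and -0.0166), so the numbers were not taken as pairs, and the replicate block gave 31 higher calls in diestrus against 35 without it in the same 6 uteri. Over all tested genes 11.3% were called higher with the block and 13.1% without it. For the other pairs of stages no block could be fitted, since they share fewer than 2 numbers. Scarce members rest on few counts. In metestrus replicate 5, with a library total of 1840288, 22 of 55 had 3 counts or fewer. In metestrus replicate 6, with the smallest total (1630371), 0 did.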
